A study of Mus musculus with 16 samples.

Results

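Airway epithelium of Itgb6 knockout (ko) mice was compared after ovalbumin (OVA) and after saline. The comparison takes every array whose title names ko epithelium, 4 with OVA and 4 with saline, which is 8 of the 16 arrays of the series, and covers all genes measured on them. The other 8 arrays are of wild type (wt) mice and enter here through the shared estimate of the spread and a few side-by-side values.

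Itgb6 encodes the integrin subunit beta6, found on epithelial cells, which pairs with alpha v and activates latent TGF-beta. OVA is an egg white protein that mice can be made allergic to. Repeated allergen in the airway is known for type 2 inflammation, in which IL-13 acts on the epithelium and secretory cells turn into mucous (goblet) cells. These cells load gel-forming mucins, proteins of great size that are folded in the endoplasmic reticulum, decorated with O-linked sugars in the Golgi and stored in granules. Club cells, the other secretory cells of mouse airways, carry secretoglobins and enzymes that metabolise foreign compounds.

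The mice were of strain FvB and 6 to 8 weeks old when sensitized. The OVA group (ko_OVA) received 20 ug of OVA by intraperitoneal injection on days 1, 4 and 7, then 10 ug into the nose each week for 9 weeks. The saline group (ko_saline) received saline by the same routes and schedule, and both groups carried the beta6 knockout. Epithelium was brushed from the airways 24 h after the final dose, and 0.5 ug of RNA was labelled for each one-colour array. The labels do not say how the allele was made or whether each array is a separate mouse, so p-values measure the spread between these samples, part of which may be technical.

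All values are log2 signals relative to the 75th percentile of the array, so that a difference of 1 is 2-fold, and −3.32 is the floor below which signals were not read. On the 8 ko arrays the 75th percentile lay between 78.0 intensity units (ko_OVA 4) and 793 (ko_saline 3), and 43.3% to 62.8% of probes were well above background. Replicates correlated at r of 0.974 to 0.989 in ko_saline and 0.965 to 0.986 in ko_OVA, across genes. Markers of airway epithelium gave signal throughout: Krt5, the keratin of basal cells, lay between 6.27 and 7.23, and Foxj1, the regulator of cilia, between 5.26 and 5.98 on the 7 arrays that kept its spot. Itgb6 itself lay between −1.02 and −0.73 in ko_saline and at −0.98, −1.71, −0.96 and −1.02 on ko_OVA 1 to 4, a difference of −0.30 ± 0.16 (SE, n = 4 and 4, adjusted p = 0.600). Whether its probe falls within the disrupted sequence is not given in the files, so it does not check the genotype.

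Between ko_OVA and ko_saline 139 of 18566 tested genes (0.749%) differed by limma at a Benjamini-Hochberg adjusted p below 0.05, transcripts without a symbol included. Of these 89 (0.479%) were higher with OVA and 50 (0.269%) were lower, and 57 and 29 of them changed at least 2-fold. Counts of called list members below are to be read beside these shares. The lists were chosen with earlier results of these data known. The median change of all genes was 0.00. Among the called genes the 4 arrays of one group lay wholly above the 4 of the other for 88 of the 89 higher and 49 of the 50 lower genes. Over all genes the same held for 3.09% in the higher and 2.14% in the lower direction. The arrays lay on 4 slides, of which 3 held both ko groups, and each of the 131 called genes with a value on all 3 kept its sign there. These genes were called on the same arrays, so the kept signs are no independent support. With slide as a fixed block 99 genes were called, of which 84 were among the 139. The count of 139 rested on several single arrays, since it was 69, 71 and 89 without ko_saline 1, 2 and 3, 75 without ko_OVA 2 and 79 without ko_OVA 4. It was 35 under median scaling and 7 when only the 8 ko arrays were fitted, and the share of calls that were higher was 64.0% here, 51.3% with the percentile taken over probes detected on all arrays and 45.2% without ko_saline 2 and 3.

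Of 22 measured members of the mucous cell list 11 rose (against 0.479% of all genes) and none fell. The changes ran from −0.36 to 5.41 with a median of 1.71, and 20 of the 22 were higher by any amount. Clca1, a secreted goblet cell product, stood at 2.38, 3.21, 3.26 and 3.59 on the ko_saline arrays and at 7.48, 8.91 and 9.18 on ko_OVA 1, 2 and 4, its spot on ko_OVA 3 being left out. All OVA values were far above all saline values, and the rise was 5.41 ± 0.81 (SE, n = 4 and 3, adjusted p = 0.00884). Itln1, a lectin of mucus, stood at 3.23 to 3.76 on ko_saline and at 7.68, 7.48 and 6.99 on ko_OVA 2, 3 and 4. It rose by 3.90 ± 0.35 (adjusted p = 0.000632).

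Muc5ac, the gel-forming mucin induced by allergen, was at −0.32, −0.61, −0.69 and 0.43 on ko_saline and at 1.17, 4.22, 3.90 and 2.79 on ko_OVA 1 to 4. The groups did not overlap, but ko_OVA 1 stood well below the other OVA arrays. The rise was 3.32 ± 0.53 (adjusted p = 0.00862). Slc26a4, the anion exchanger pendrin, was near the floor on ko_saline, at −3.32 to −2.61, and reached −0.68, 2.21, 1.54 and −0.30 on ko_OVA (3.63 ± 0.60, adjusted p = 0.00971). Scin, which severs actin filaments, went from −1.54 to −0.24 on ko_saline to 2.12, 3.82, 3.23 and 1.81 on ko_OVA (3.80 ± 0.45, adjusted p = 0.000932). Gp2, a membrane-anchored glycoprotein, rose by 1.87 ± 0.36, and it was highest on ko_OVA 1, at 4.65 against 3.31 to 3.58 on the other OVA arrays.

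**Figure D1:**
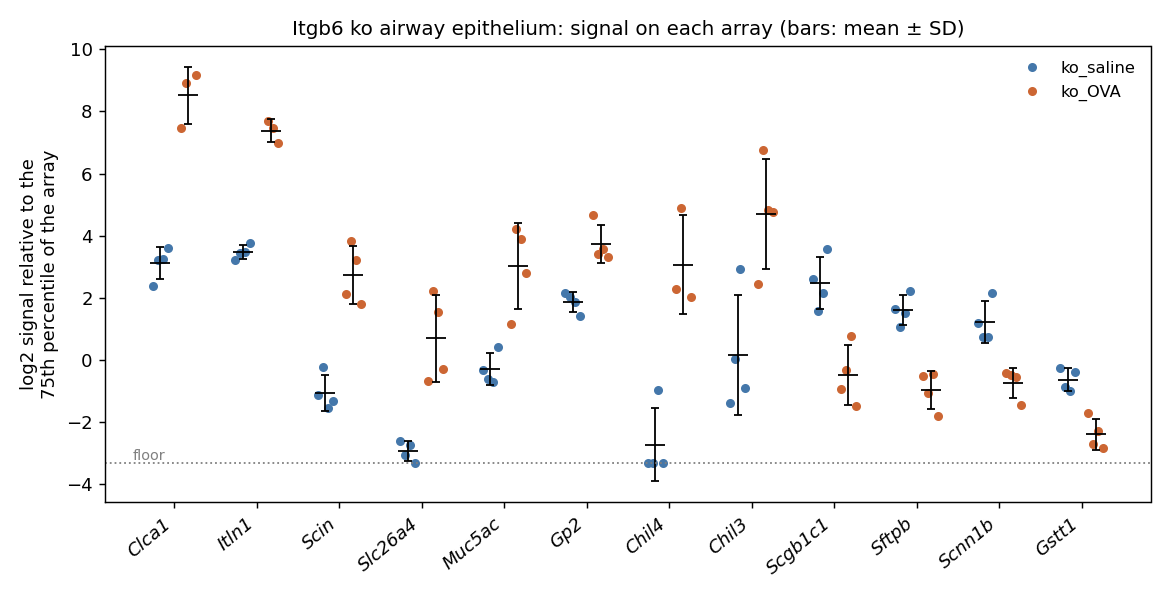
Signal of 12 genes on each ko array, as log2 relative to the 75th percentile of the array, with ko_saline in blue, ko_OVA in orange, bars for mean ± SD and the floor dotted. The groups stand apart for every gene drawn except Chil3, whose highest saline value (2.92) exceeds its lowest OVA value (2.46).

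The other 5 called members of the mucous list were outside the naming rule and are given because they complete it. Foxa3, a transcription factor of the goblet programme, had little spread: −1.69 to −1.42 on ko_saline and −0.20, 0.61, 0.19 and −0.06 on ko_OVA, a rise of 1.69 ± 0.14 (adjusted p = 0.000166). Spdef, the master regulator of goblet cells, rose by 1.22 ± 0.16. Agr2, a disulfide isomerase needed to fold mucins, rose by 1.73, Fcgbp, a mucus protein, by 1.81, and Bpifb1, a secreted antimicrobial protein, by 1.24. The call of Bpifb1 was lost in 10 of 27 alternatives, among them those without ko_saline 2, ko_saline 3, ko_OVA 2 or ko_OVA 4, at changes of 0.98 to 1.37 over all 27.

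Among the members that did not pass, Muc5b, the mucin present without allergen, had 4.49 to 5.74 on ko_saline and 5.03, 6.52, 6.39 and 6.46 on ko_OVA (1.17 ± 0.34, adjusted p = 0.185). Tff1, a trefoil peptide, had a large difference with a wide error (3.54 ± 0.82, adjusted p = 0.0725), and Tff2 differed by 1.46 ± 0.43. The protease Capn9 was not well above background on any ko_saline array and was so on all 4 ko_OVA arrays. On ko_OVA it read −3.32, 0.37, −0.82 and −2.03, and its difference, at least 1.87 on the log2 scale, did not pass (adjusted p = 0.179). The membrane mucins Muc1 (−0.06) and Muc20 (−0.36) did not pass either.

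On single slides the median of the mucous list was 1.91, 0.85 and 2.21, the lowest on the slide that holds ko_OVA 1. Clca1 lost its call without ko_OVA 4 (5.08, adjusted p = 0.0534), and Gp2 lost it without any one of 6 arrays, ko_saline 1 to 4 and ko_OVA 2 and 3 (adjusted p = 0.0522 to 0.0714). Without ko_saline 2 and 3, the arrays with the most striated muscle signal, Clca1 (5.54), Muc5ac (2.97) and Slc26a4 (3.66) kept their size and lost their calls, while Itln1 and Scin kept theirs.

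Mucins are built by glycosyltransferases, and 2 of 25 measured genes of mucin glycans rose (against 0.479% of all genes) while none fell (median 0.33). Galnt6, which starts O-glycan chains, was at 1.84 to 2.35 on ko_saline and at 3.38, 3.57, 3.32 and 2.81 on ko_OVA (1.15 ± 0.20, adjusted p = 0.0159). B4galt1, a galactosyltransferase, rose by 0.52 ± 0.11 (adjusted p = 0.0456). Neither call was stable: Galnt6 lost it without any one of 3 arrays and B4galt1 without any one of 6, at changes of 1.05 to 1.14 and 0.46 to 0.53. For 9 of the 25 genes the OVA arrays all lay above the saline arrays, against 3.09% of all genes, and 20 were higher by any amount. St6galnac2 (1.03 ± 0.27), B3gnt3 (0.75 ± 0.16) and Galnt12 (0.49 ± 0.11) were among these without passing.

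Of 32 measured genes that fold proteins in the endoplasmic reticulum or answer its stress, 6 rose (against 0.479% of all genes) and none fell. The changes ran from −0.09 to 1.78 with a median of 0.58, and 29 were higher by any amount. Sdf2l1, a cofactor of the main chaperone, was at 3.02, 2.66, 2.85 and 3.22 on ko_saline and at 3.91, 4.59, 4.03 and 4.39 on ko_OVA (1.29 ± 0.19, adjusted p = 0.00508). Manf, a secreted protein of the stress response, was at 4.20 to 4.35 on ko_saline and at 5.04, 5.59, 5.31 and 5.62 on ko_OVA (1.09 ± 0.13, adjusted p = 0.00102). The groups stood apart for both.

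The disulfide isomerases Pdia4 (1.02 ± 0.15) and Pdia6 (0.89 ± 0.16) rose, and so did Hspa5, the chaperone BiP itself (0.74 ± 0.13, n = 4 and 3). Creld2, another protein induced by misfolding, rose by 1.20 ± 0.16 on the 3 saline and 2 OVA arrays that kept its spot. Pdia4 was lowest of the OVA arrays on ko_OVA 1, at 4.40 against 5.12 to 5.17. Derl3, a channel component that removes misfolded proteins, differed by 1.78 ± 0.42 without passing (adjusted p = 0.0738). Pdia6 lost its call without any one of 5 arrays, Hspa5 without any one of 4 and Creld2 without ko_saline 2 or ko_OVA 2, at changes of 0.81 to 0.87, 0.71 to 0.75 and 1.09 to 1.16. Sdf2l1, Manf and Pdia4 kept theirs without any one ko array. Under median scaling, and when only the 8 ko arrays were fitted, these genes and Pdia6, Hspa5 and Creld2 all lost their calls. Of the called folding genes only Manf kept its call without ko_saline 2 and 3. Pdia4 also lost its call with array position as a fixed block.

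Genes of this response are known for a promoter element, ERSE, 19 bases long, which begins with CCAAT and ends with CCACG, the bases between being free, and at which ATF6 and XBP1 act together with NF-Y. The 250 bases before the start of 5 of the 6 called genes were available from RefSeq on build GRCm38.p6, and 3 of them held the element on one strand or the other. They are shown with the element in capitals, 5′ to 3′ on the strand of the gene, which is the plus strand in each case. All 3 genes rose, but so did every gene searched, since list members that were not called were not searched. Whether the element goes with the rise was therefore not tested.

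Hspa5: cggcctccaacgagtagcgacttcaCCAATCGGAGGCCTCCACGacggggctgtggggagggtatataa

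Pdia6: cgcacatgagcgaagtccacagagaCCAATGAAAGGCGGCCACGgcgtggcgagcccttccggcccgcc

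Creld2: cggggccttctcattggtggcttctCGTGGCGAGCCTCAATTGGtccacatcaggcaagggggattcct

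The Hspa5 window is chr2:34772000-34772068, with the element at −65 to −47 relative to the start. The Pdia6 window is chr12:17266466-17266534, with the element at −98 to −80. The Creld2 window is chr15:88819495-88819563, and there the element lies on the minus strand at −126 to −108. Of all 32851 RefSeq promoters, 0.113% held the element in the same 250 bases. Sdf2l1 and Pdia4, which rose too, had no match. A related element, ERSE-II (ATTGG and CCACG separated by 1 base, in 0.03% of promoters), matched none of the 5. A binding motif of STAT6, TTC and GAA separated by 4 bases and present in 5.85% of promoters, matched none of the 11 called mucous and type 2 genes whose promoters were at hand. All motifs were sought on both strands. A match describes letters and not binding.

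Of 47 measured genes of transport out of the endoplasmic reticulum 3 rose (against 0.479% of all genes) and none fell. The median was 0.23, against 0.00 over all genes, and 45 of the 47 were higher by any amount. Sec11c and Spcs2, subunits of the signal peptidase, rose by 0.59 ± 0.13 and 0.46 ± 0.09, and Sec24d, which loads cargo into COPII vesicles, rose by 0.49 ± 0.11. These calls lay close to the threshold (adjusted p = 0.0491, 0.0463 and 0.0495), and each was lost without any one of 6 or 7 of the ko arrays, at changes of 0.39 to 0.63.

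**Figure D2:**
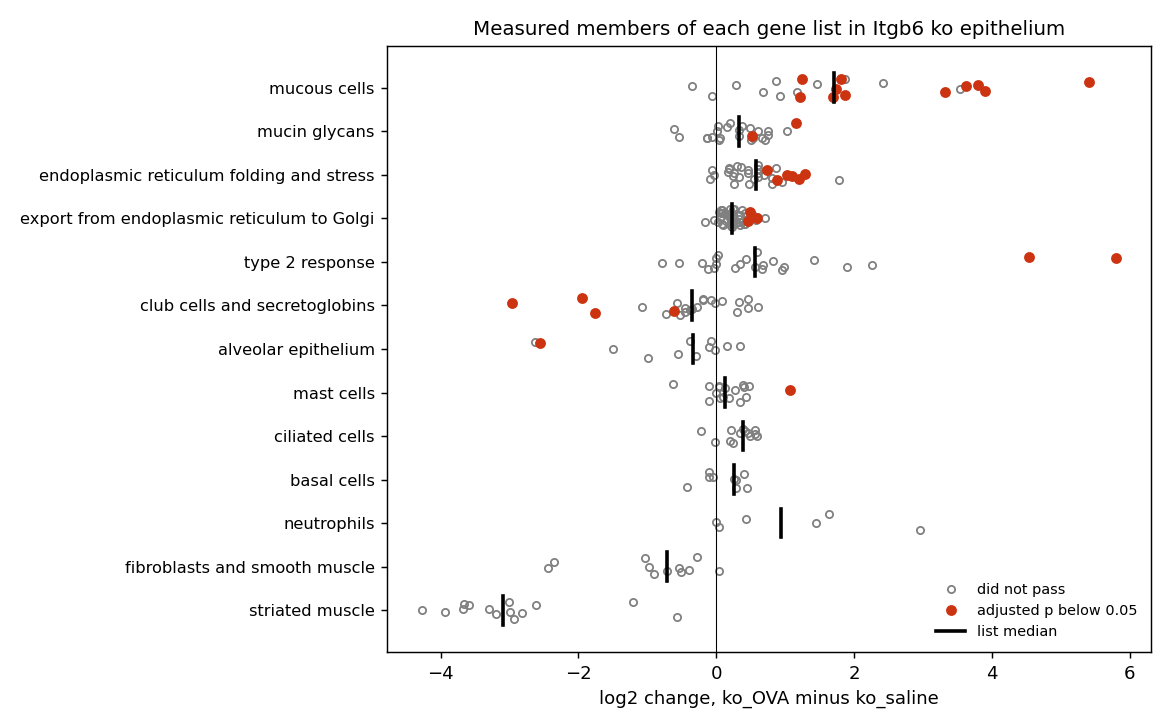
Change of every measured member of 13 gene lists, as the log2 difference ko_OVA minus ko_saline, with members that passed in filled red, the others open and a bar at the list median. Mucous cell genes reach 5.41 with a median of 1.71, while folding genes run from −0.09 to 1.78, export genes from −0.16 to 0.70, and striated muscle genes lie below it with none that passed.

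Among type 2 response genes 2 of 23 rose, against 0.479% of all genes, and by large amounts. Chil4 and Chil3 encode chitinase-like proteins secreted in type 2 inflammation. Chil4 was at the floor on ko_saline 1, 2 and 4 and at −0.96 on ko_saline 3, and reached 2.28, 4.89 and 2.04 on ko_OVA 1, 2 and 4. Its rise of 5.80 ± 0.69 (n = 4 and 3, adjusted p = 0.0013) therefore depends on the floor. Chil3 varied widely within both groups, with −1.38, 0.02, 2.92 and −0.90 on ko_saline and 2.46, 6.75, 4.81 and 4.77 on ko_OVA. Its groups overlapped, the rise was 4.53 ± 0.89 (adjusted p = 0.0280), and the call was lost without any one of ko_saline 1, 2 and 4 and ko_OVA 2, 3 and 4 (adjusted p = 0.0672 to 0.0937).

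No further member of the list passed in limma, and its median was 0.56. Retnla, a secreted protein of alternatively activated macrophages and epithelium, had 4.13 to 4.37 on 3 ko_saline arrays and 5.03, 8.21, 7.58 and 5.14 on ko_OVA. Its difference of 2.26 ± 1.01 did not pass (adjusted p = 0.494). Cdh26, a cadherin induced by IL-13, differed by 0.95 ± 0.21 (adjusted p = 0.0503). The receptor chains Il4ra (0.02) and Il13ra1 (−0.21) and the transcription factor Stat6 (0.27) did not pass. Il13 was at the floor on all 8 arrays, and Il4 was above the floor on 3 ko_OVA arrays, highest at 1.05 on ko_OVA 4.

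Neutrophil markers varied with the same arrays as Chil3. The log2 of the summed signal of the 6 measured neutrophil genes was 1.53 to 3.09 on ko_saline, 4.70 to 5.73 on ko_OVA 2, 3 and 4, and 0.26 on ko_OVA 1. S100a9 read 5.49, 4.39 and 4.79 on those 3 arrays and −0.81 on ko_OVA 1. None of these 6 genes passed in limma, the defining receptor Cxcr2 was at the floor on all 8 arrays, and the part of neutrophils in the chitinase-like genes was not tested. Il1b (2.48 ± 0.81) and Il1rn (2.35 ± 0.65), a cytokine and its receptor antagonist, were high on the same 3 arrays and did not pass.

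Further genes that rose belong to small families of secreted or membrane proteins. Ang6 and Ang4, ribonucleases of the angiogenin family, rose by 2.49 ± 0.30 and 1.76 ± 0.27. Ang6 stood at −1.29 to −0.89 on ko_saline and at 0.56, 1.48, 1.41 and 1.95 on ko_OVA (adjusted p = 0.00102). They were 2 of 10 measured ribonucleases, against 0.479% of all genes. The eosinophil-associated members Ear1 (−0.18), Ear10 (0.03), Ear6 (0.94 ± 0.65) and Rnase2a (1.23 ± 0.82) did not pass. Within the OVA group all 4 of these were highest on ko_OVA 4. Probes of near-identical family members can share signal, so the assignment within this family is uncertain. Among 17 protease inhibitors 2 rose (against 0.479% of all genes): Spink1, a trypsin inhibitor, by 3.29 ± 0.57, and Serpinb11 by 1.97 ± 0.29. Spink1 was higher on ko_OVA 1 and 4 (2.73 and 2.81), the OVA arrays with less Muc5ac, than on ko_OVA 2 and 3 (0.96 and 1.24). Its call was lost without any one of 3 arrays, ko_saline 1, ko_saline 2 and ko_OVA 4 (2.99 to 3.22).

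Adra2a, an adrenergic receptor, rose by 2.25 ± 0.28, from −0.04 to 1.13 on ko_saline to 2.04 to 3.27 on ko_OVA (adjusted p = 0.0014). Cldn22, a tight junction claudin, rose by 1.92 ± 0.26, and Cd244a, a receptor of natural killer cells, by 1.86 ± 0.28. 2210407C18Rik, a gene of unassigned role here, rose by 3.16 ± 0.43. These calls held without any one ko array. Each was lost when only the 8 ko arrays were fitted, and that of Cldn22 also without ko_saline 2 and 3.

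Secretoglobin and club cell genes did not move as one. Of 23 measured 4 fell (against 0.269% of all genes) and none rose, and the median was −0.35. Scgb1c1, a secretoglobin, fell furthest: it was at 2.60, 1.59, 2.17 and 3.57 on ko_saline and at −0.92, −0.31, 0.78 and −1.47 on ko_OVA, without overlap (−2.96 ± 0.48, adjusted p = 0.00884). Scnn1b, the beta subunit of the epithelial sodium channel, was at 0.73 to 2.17 on ko_saline and at −0.43, −0.49, −0.55 and −1.46 on ko_OVA (−1.95 ± 0.35, adjusted p = 0.0191). Gstt1, a glutathione transferase, fell by 1.76 and Aox3, an aldehyde oxidase, by 0.61. The call of Scnn1b was lost without ko_saline 1 (−1.95) or ko_OVA 4 (−1.70), and that of Aox3 without any one of 7 arrays.

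For the defining products of club cells no difference was detected. Scgb1a1, the defining secretoglobin, was at 8.41 to 10.27 on ko_saline and at 8.56, 9.60 and 10.13 on ko_OVA (0.08 ± 0.50, adjusted p = 1). Scgb3a1 (0.60 ± 0.57) and the cytochrome Cyp2f2 (0.33 ± 0.54) did not pass, and these errors are wide. The bulk signal cannot tell fewer cells of a type from less RNA per cell.

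Scnn1b also belongs to the list of airway ion transport. There 1 of 16 genes fell (against 0.269% of all genes) and 1, Slc26a4, rose (against 0.479%). Scnn1g, the gamma subunit of the same channel, differed by −1.05 ± 0.31 without passing, although its arrays did not overlap. Scnn1a, the alpha subunit, differed by −0.21 ± 0.23, and the chloride channels Cftr (0.19 ± 0.35) and Ano1 (−0.09 ± 0.13) did not pass.

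Of 12 genes of alveolar epithelium 1 fell, against 0.269% of all genes. Sftpb, a surfactant protein also made by club cells, was at 1.64, 1.05, 1.50 and 2.21 on ko_saline and at −0.53, −1.08, −0.45 and −1.79 on ko_OVA (−2.56 ± 0.30, adjusted p = 0.000932). Sftpc, the surfactant protein that defines alveolar type 2 cells, scattered from 2.44 to 6.40 on ko_saline and from 1.29 to 4.96 on ko_OVA and did not pass (−2.63 ± 0.96, adjusted p = 0.331). Sftpa1 (−0.39) and Sftpd (0.16) did not pass. Of 20 genes of xenobiotic metabolism 1 fell, against 0.269% of all genes: Ephx1, an epoxide hydrolase (−0.84 ± 0.18, adjusted p = 0.0495). Omitting any one of 7 arrays ended that call.

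Several other falling genes have roles outside these lists. Aass, an enzyme of lysine breakdown, was at −0.13 to 0.58 on ko_saline and at −1.57, −2.12, −1.38 and −1.76 on ko_OVA (−1.86 ± 0.23, adjusted p = 0.00102). Maob, a monoamine oxidase, fell by 1.70, and Adcyap1r1, the receptor of the neuropeptide PACAP, by 2.50 on 4 saline and 3 OVA arrays. Krtap17-1, a keratin-associated protein, fell by 2.30. Rab6b, a GTPase of Golgi transport, was at the floor on 3 of 4 ko_OVA arrays, so its fall of 2.29 depends on the floor. None of these 5 lost its call without any one ko array, but each lost it when only the 8 ko arrays were fitted. Maob and Krtap17-1 also lost it under median scaling, and Krtap17-1 without ko_saline 2 and 3 too. Adcyap1r1 lost it when the left-out spots of all arrays were kept (−1.55, adjusted p = 0.447), with slide as a fixed block (−2.40, adjusted p = 0.0534) and with normexp background correction (−0.57, adjusted p = 0.0816).

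Kdr, the VEGF receptor of endothelium (−2.25 ± 0.48), C6, a complement component (−2.19 ± 0.43), Rptn, a protein of cornified epithelium (−1.90 ± 0.35), Hspb2, a small heat shock protein of muscle (−1.94 ± 0.39), and Uchl1, a ubiquitin hydrolase of neurons and endocrine cells (−1.77 ± 0.37), also fell. Kdr, C6 and Rptn were highest of all ko arrays on ko_saline 4, at 0.81, 1.43 and 0.38. Their calls and those of Hspb2 and Uchl1 were lost without any one of 2 (Rptn) to 8 (Uchl1) arrays. Rspo1, a secreted activator of Wnt signalling, fell by 1.83 ± 0.39 in ko, while its change in wt was +0.03 ± 0.39. The difference between genotypes was −1.87 ± 0.55 and did not pass (adjusted p = 0.993), and the ko call was lost without any one of 6 arrays.

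Brushed epithelium can carry other tissues, and some of their markers moved with the groups. The log2 of the summed signal of 13 striated muscle genes was 1.81, 8.97, 7.73 and 5.03 on ko_saline 1 to 4 and 2.32, 1.50, 3.79 and 3.49 on ko_OVA. It was high on ko_saline 2 and 3 and lowest of the saline arrays on ko_saline 1. All 14 measured muscle genes were lower with OVA, with a median of −3.10, and none passed. The 10 fibroblast and smooth muscle genes with a value on all ko arrays summed to 4.99 to 5.27 on ko_saline and 4.13 to 4.67 on ko_OVA. These sums did not overlap, and none of 11 measured genes passed (median −0.72). Endothelial genes summed to 1.43 to 1.86 and 0.47 to 1.50. Kdr, which fell, was the 1 of 7 that passed, against 0.269% of all genes called lower. Pecam1, a defining endothelial marker, was at the floor on all 8 arrays. The part of these tissues in the falling genes was not tested.

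With the mean of the striated muscle genes as a covariate 65 genes were called, and 20 of the 45 named calls were lost, all with the sign kept. Among these Clca1 (5.25), Muc5ac (3.04), C6 (−2.19) and Kdr (−2.13) kept nearly their size, while Hspb2 (−1.39) and Rspo1 (−1.29) were smaller. Leaving out both ko_saline 2 and 3 gave 42 calls, of which 35 were among the 139. Thyroid genes were present as well, with Tg between −1.27 and 7.30 on the ko arrays. The 3 measured thyroid genes summed to 0.96 to 7.34 on ko_saline and −0.70 to 5.17 on ko_OVA. Their median change was −1.80 and none passed. None of 13 ciliated cell genes (median 0.39) and 9 basal cell genes (median 0.25) passed, although 5 of the ciliated genes had OVA arrays wholly above saline arrays, against 3.09% of all genes. The 10 ciliated genes with a value on all ko arrays summed to 6.57 to 7.11 on ko_saline and 6.98 to 7.34 on ko_OVA.

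**Figure D3:**
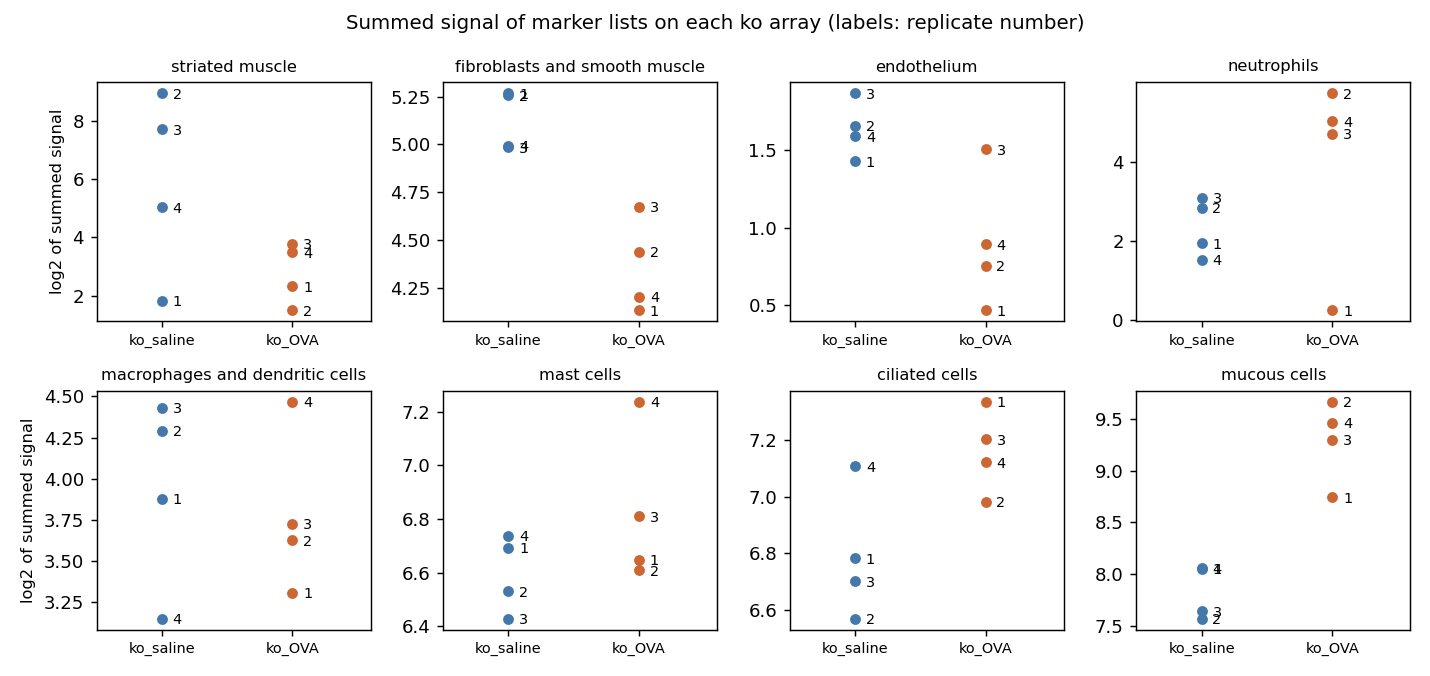
Log2 of the summed signal of 8 marker lists on each ko array, with ko_saline in blue, ko_OVA in orange and the replicate number beside each point. Sums take only genes with a value on all 8 ko arrays, so the mucous sum holds 20 genes, without Clca1 and Itln1. Striated muscle is high on ko_saline 2 and 3, neutrophil genes are high on ko_OVA 2, 3 and 4 and low on ko_OVA 1, and only the mucous and the fibroblast and smooth muscle sums separate the groups in these panels.

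Lists of immune cells held few changes. No gene of the lists of macrophages and dendritic cells (16 measured), MHC class II (7), T cells (12) or B and plasma cells (8) passed in limma. Cd79b (−1.58 ± 0.51) and Pou2af1 (−1.29 ± 0.38), genes of B cells, were lower on all ko_OVA arrays than on all ko_saline arrays without passing. The 4 measured eosinophil genes summed to −1.32 to −0.47 on ko_saline and to −1.32, −1.32 and −1.19 on ko_OVA 1 to 3, at or near the floor, and to 1.48 on ko_OVA 4. No listed basophil gene was measured.

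Mast cell genes differed little between the groups. Of 17 measured 1 rose (against 0.479% of all genes), none fell and the median was 0.12. Mcpt2, a protease of mucosal mast cells, read −2.93 on ko_saline 1, sat on the floor on the other 3 and was at −1.97, −2.46, −2.19 and −2.01 on ko_OVA. Its rise of 1.06 ± 0.20 (adjusted p = 0.0255) depends on the floor, and it was lost without any one of 6 arrays. Mcpt1, the other mucosal protease, was at the floor on all 4 ko_saline arrays and on ko_OVA 1 and 4, and read −2.04 and −3.21 on ko_OVA 2 and 3. The chymase Cma1 had 4.38 to 5.01 on ko_saline and 4.52, 4.46, 4.50 and 5.55 on ko_OVA (0.04 ± 0.32, adjusted p = 1). Tpsb2, a tryptase, differed by 0.40 ± 0.29 and Mcpt4, a chymase of connective tissue mast cells, by 0.12 ± 0.42. Cma1, Tpsb2 and Mcpt4 were all highest on ko_OVA 4.

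Most genes called in ko were also called in wt, which has its own saline arrays. Of the genes called in ko, 76 of the 89 higher and 34 of the 50 lower were called in the same direction in wt. These 110 genes were 79.1% of the ko calls and 22.7% of the 485 calls (2.61%) in wt. Both comparisons draw on 1 variance estimate for each gene, so they are not independent. Changes in wt were 5.34 ± 0.81 for Clca1, 3.47 ± 0.53 for Muc5ac and −2.88 ± 0.30 for Sftpb. Medians of the lists in wt and ko were 1.63 and 1.71 for mucous cells, 0.66 and 0.58 for folding in the endoplasmic reticulum, and −0.87 and −0.35 for club cells.

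The test of the difference between genotypes called none of the 18566 genes in limma (0%), with 569 at an unadjusted p below 0.05 and a smallest adjusted p of 0.155. It also called none under median scaling, and 1 with slide as a fixed block, Fpr1, a receptor of formylated peptides (1.40), which was named after its value was seen. The mast cell list had a median change of 1.58 in wt and 0.12 in ko. The difference, ko minus wt, was −4.18 ± 0.67 for Mcpt1, −3.41 ± 0.60 for Mcpt4 and −2.36 ± 0.41 for Cpa3, a mast cell carboxypeptidase (adjusted p = 0.190, 0.240 and 0.240). The saline levels differed between genotypes. Mcpt4 was at −2.78 to −1.28 on wt_saline, 0.40 to 2.52 on wt_OVA and already 2.96 to 3.52 on ko_saline. Cpa3 was at −3.32 to −1.71, −0.88 to 0.23 and 2.47 to 2.93 on the same groups. Mcpt1 was at the floor on every wt_saline and ko_saline array and at −0.54 to 2.37 on wt_OVA. Chil3 was at 4.82 to 5.71 on wt_saline, above every ko_saline array, and at 5.57 to 7.10 on wt_OVA, so it changed by 1.21 ± 0.89 in wt. The differences of 3.32 ± 1.26 for Chil3 and 3.03 ± 0.94 for Chil4 did not pass (adjusted p = 0.993 for each).

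**Figure D4:**
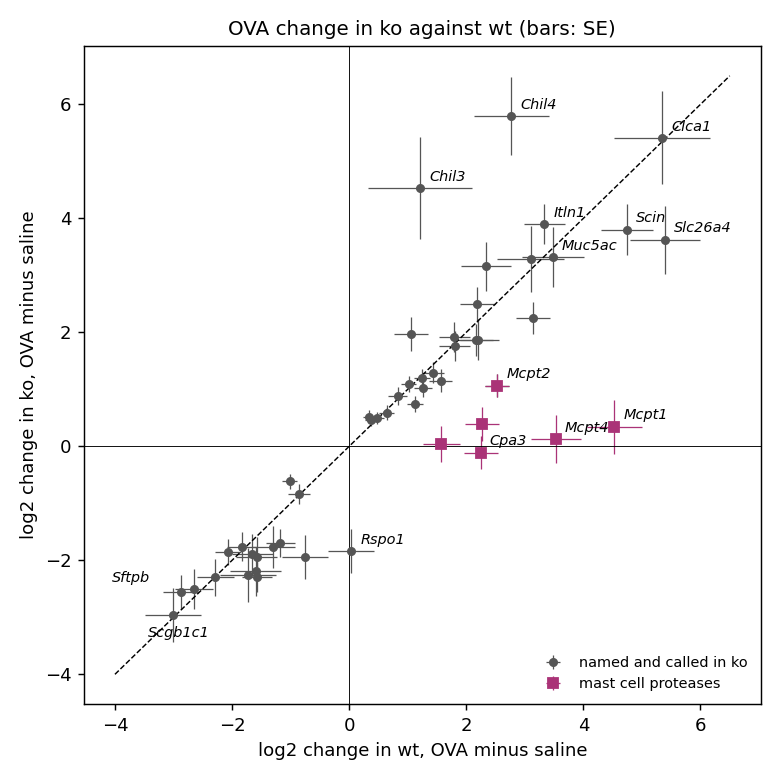
Log2 change with OVA in ko (vertical) against wt (horizontal) for the 45 named genes called in ko and the mast cell proteases, with SE bars and a dashed line of equal change. Most called genes lie near the line, Chil4 (5.80 in ko, 2.77 in wt) and Chil3 (4.53 and 1.21) lie above it, and the mast cell proteases lie below it, without a gene that passed the test of the difference.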

How the data were processed

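Each scanner file, as deposited, gives a background-subtracted processed signal and a median signal per spot in intensity units, made with Agilent Feature Extraction 10.5.1.1 per the file headers (10.1 per the submitters' processing notes). A deposited table of log2 values of the same arrays, whose method is not given in the sources used here, served as an alternative. Control spots and spots marked as uneven or as outliers were left out. Spots of a probe were averaged, scaled to the 75th percentile and raised to 1 floor (−3.32), the lowest signal readable on the dimmest array. Probes well above background on 4 or more of 16 arrays were kept (25615 of 41174), with the brightest probe for each gene. RefSeq accessions named 24844 probes, and 517 of 611 listed genes were measured. Of 32 called genes with several probes, Strip2 had one of opposite sign.

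A limma 3.58.1 model (R 4.3.3) took all 16 arrays with a mean for each group. Adjustment was by Benjamini-Hochberg. The model was tested on simulated data with independent noise and no slide, tissue or floor effects. It recovered 22%, 80%, 88% and 98% of log2 changes of 0.5, 1, 2 and 4, and 10 of 154 calls were false. The ERSE and other motifs were sought in RefSeq promoters of GRCm38.p6.

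The genes, gene lists and tests were chosen with earlier results of these data known. The genes named are Itgb6, the 15 largest called changes in each direction among genes that have a symbol, up to 6 called members of a main list and 3 of another, and 6 mast cell proteases. Any other gene was named after its values were seen. Alternatives covered scaling, background correction, the floor, filters, probes, blocks, covariates and left-out arrays.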

Additional observations from a re-analysis of the deposited data

Results flagged for a closer look

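Of 95 groups of 4 arrays looked at for the named genes, 14 held 1 array apart from the other 3 by Dixon's criterion at 95%, which chance meets in about 1 of 20 groups. On ko_saline 4, C6 (1.43 against −0.70 to −0.41), Kdr (0.81 against −0.79 to −0.56), Rptn (0.38 against −1.47 to −1.20) and Rab6b (−0.013 against −1.08 to −0.99) were each the highest. On ko_OVA 4, the mast cell genes Cma1 (5.55 against 4.46 to 4.52) and Tpsb2 (3.36 against 2.37 to 2.52) were high and the channel subunit Scnn1b (−1.46 against −0.55 to −0.43) was low. Itgb6 was low on ko_OVA 2, at −1.71 against −1.02 to −0.96, and the chaperone gene Pdia4 was low on ko_OVA 1, at 4.40 against 5.12 to 5.17. Tpsb2 was high on ko_saline 1, at 2.62 against 2.14 to 2.21. In 4 groups the other values lay on or near the floor of −3.32. These were Chil4 on ko_saline 3 (−0.96), Mcpt2 on ko_saline 1 (−2.93), Mcpt1 on ko_OVA 2 (−2.04) and Rab6b on ko_OVA 3 (−2.39). What sets these arrays apart was not tested.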

How the results depend on the processing

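The count of 139 called genes was 35 under median scaling, 7 when only the 8 ko arrays were fitted, and 65 with striated muscle genes as a covariate. In alternatives chosen after seeing the data it was 77 without the dimmest array (ko_OVA 4) and with the floor of the others, and 42 without ko_saline 2 and 3. Also chosen then were the percentile over probes detected on all arrays, with 152 calls, and keeping the left-out spots, with 164. Leaving out 1 ko array gave 69 to 168. Under the other alternatives it was 95 to 157. The 7 genes called on the ko arrays alone included Itln1, Plat, Prss23, Clca3b and Hacd4. That fit has fewer arrays to estimate the spread. What lowered the count was not tested, there or under the other settings. For the 45 named genes called, the alternatives gave 1207 values, of which 875 kept the call, 332 kept the sign without the call and 0 changed sign, and Itln1 kept its call in each. The median of the mucous list ran from 1.24 to 1.79. The difference between genotypes gave 1 call (Fpr1) with slide as a fixed block. With replicate number as a block the count was 103, and 12 named genes lost their call. Deviations of same-numbered arrays correlated at −0.03, −0.13, 0.23 and 0.07, which showed little sign that the numbers pair the samples. Of the 4 ko_OVA arrays only ko_OVA 3 correlated best with its own number. These correlations cannot settle whether the samples were paired. Dim signal limits what can be read near the floor, and ko_OVA 4 was the dimmest array.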

Other observations

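The following called genes were all named after their values were seen. Among enzymes that break down amines and foreign compounds, Maoa, the other monoamine oxidase, fell by 1.06 (adjusted p = 0.00884 in limma). The glutathione transferases Gsta2, Gstt2 and Gsta1 fell by 1.39, 1.33 and 1.18, though close relatives can share signal. Cat, the catalase of peroxisomes, fell by 0.90, and Pparg, a nuclear receptor of lipid metabolism, by 0.75. Bmp4, a secreted growth factor, fell by 1.62 (adjusted p = 0.000932), and Hacd4, an enzyme of fatty acid elongation, by 1.31.

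Among the called genes that rose, Clca3a2, Clca3a1 and Clca3b, relatives of Clca1, changed by 1.76, 1.71 and 1.32, and signal could be shared within this family too. Creb3l4, a transcription factor anchored in the endoplasmic reticulum, rose by 1.25 (adjusted p = 0.000695 in limma), and Fkbp11, a prolyl isomerase of secretory cells, by 1.42. Plat, the tissue plasminogen activator, rose by 1.67 (adjusted p = 0.000932), and Cd177, a surface protein of neutrophils, by 1.74. Flt3l, a growth factor of dendritic cells, rose by 0.97, and Wnt5b, a Wnt ligand, by 0.74.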
